A study of Mus musculus with 2 samples.

Results

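Aqp4, Aldh1l1, S100b, Sox9, Slc4a4 and Ndrg2 mark astrocytes and carry parts of their housekeeping work, and are described here in adult mouse cerebral cortex. They were chosen by name and make up 6 of the 55536 annotated genes in the deposited tables. The study measured total RNA of the left cerebral cortex by RNA-seq in 1 group of 2 libraries, replicate 1 and replicate 2. Both came from female B6CASTF1/J mice aged 2 months, the first-generation cross of the strains C57BL/6J and CAST/EiJ, with no treatment or introduced allele named. The labels number the females separately but give both the same donor entry, so the spread between replicates is that of 2 tissue samples. Each library started from 300 ng of RNA, was depleted of ribosomal RNA, kept strand and held added spike-in RNAs. There is no second group, so every comparison below is among genes, among transcripts, or between the 2 libraries, and no p-value can be given.

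Astrocytes are the glial cells that surround synapses and wrap the vessels of the brain. They take up transmitter and potassium, buffer pH, and move water through end-feet that press against the vessel wall. Aqp4 is the water channel of the end-foot membrane. Slc4a4 is the electrogenic sodium bicarbonate cotransporter NBCe1, which carries bicarbonate across the astrocyte membrane with changes in voltage. Aldh1l1 is the cytosolic enzyme that oxidises formyl-tetrahydrofolate, and is widely used as a pan-astrocyte label. S100b is a calcium-binding protein that astrocytes also release, and is found in part of the oligodendrocyte lineage too. Ndrg2 belongs to a family of proteins with a hydrolase-like fold, and in adult cortex is mainly an astrocyte protein. Sox9 is a transcription factor needed for glial fate in the embryo and kept in astrocyte nuclei in the adult.

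Several of these genes make more than 1 form of their protein, and 2 of the choices can be read in the RNA. Ndrg2 has an optional coding exon of 42 bases, 14 codons, at chr14:51911086-51911127 on the minus strand (mm10). It is read in frame in the transcript Ndrg2-201 and skipped in Ndrg2-202. The stretches below are shown because the share of Ndrg2 messages with this exon is measured further on. Each holds the 20 bases before and the 20 bases after the exon, from the GENCODE M21 transcripts, with the exon in capitals.
Ndrg2-201: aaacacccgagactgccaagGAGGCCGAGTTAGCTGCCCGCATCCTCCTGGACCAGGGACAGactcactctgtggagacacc
Ndrg2-202: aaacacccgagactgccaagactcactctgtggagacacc

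Slc4a4 has a comparable choice near the end of its coding sequence, at an exon of 97 bases at chr5:89232764-89232860 on the plus strand (mm10). Since 97 is not a multiple of 3, a message without this exon reads a different frame from there on. Slc4a4-207, with the exon, encodes 1079 codons and is the form known as NBCe1-B. Slc4a4-208, without it, encodes 1094 codons and is the form known as NBCe1-C. The capitals mark the exon, and all flanking bases shown are coding.
Slc4a4-207: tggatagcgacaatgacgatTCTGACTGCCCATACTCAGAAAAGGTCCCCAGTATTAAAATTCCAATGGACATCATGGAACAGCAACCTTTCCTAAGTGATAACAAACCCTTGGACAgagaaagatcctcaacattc
Slc4a4-208: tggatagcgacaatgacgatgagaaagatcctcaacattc

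Slc4a4 also has 2 RefSeq starts, which lie 140706 bases apart. The upstream start gives NBCe1-B and NBCe1-C, and the internal one gives NBCe1-A, known as the main form of the kidney proximal tubule. The RefSeq windows of 250 bases before to 50 bases after each start (GRCm38.p6, plus strand) are given because the use of these starts is measured below. The upstream window is chr5:88887010-88887309 and the internal one is chr5:89027716-89028015. The annotated start of Slc4a4-207, chr5:88886818, lies ahead of the upstream window. Capitals mark CG dinucleotides.
Slc4a4 upstream start: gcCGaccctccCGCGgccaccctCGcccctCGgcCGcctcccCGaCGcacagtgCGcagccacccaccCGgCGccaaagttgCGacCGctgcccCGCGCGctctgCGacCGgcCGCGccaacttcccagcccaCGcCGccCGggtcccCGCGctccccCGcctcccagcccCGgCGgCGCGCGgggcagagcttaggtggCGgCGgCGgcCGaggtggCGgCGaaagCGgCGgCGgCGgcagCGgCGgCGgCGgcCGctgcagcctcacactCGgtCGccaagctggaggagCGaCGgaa
Slc4a4 internal start: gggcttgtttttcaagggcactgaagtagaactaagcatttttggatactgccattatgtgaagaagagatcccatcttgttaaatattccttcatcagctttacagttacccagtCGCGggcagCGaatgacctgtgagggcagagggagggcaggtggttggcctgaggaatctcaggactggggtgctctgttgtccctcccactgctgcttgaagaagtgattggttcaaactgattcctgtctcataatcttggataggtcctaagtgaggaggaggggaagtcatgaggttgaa

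The upstream window holds 50 CG dinucleotides and the internal one 3, against a median of 7 over the 32851 RefSeq windows of the same length. Of those windows, 99.1% hold fewer than the upstream one and 23.3% fewer than the internal one. TATAAA, searched on both strands, is in neither Slc4a4 window and in 13.6% of all windows. Windows were at hand for 4 of the 6 genes. Those of S100b and Aldh1l1 hold 3 and 9 CG dinucleotides, and the 3 windows of Ndrg2, which lie close together, hold 11, 14 and 20. Of the windows of these 4 genes, only the Ndrg2 window with 11 CG dinucleotides holds TATAAA, with 1 match.

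The 6 genes spanned a wide range of levels. Level is given as TPM, the abundance of a gene's transcripts relative to all others, which is scaled by transcript length and so can be compared between genes. Values are from the alignment-based tables, which the authors derived from aligned reads, unless the read-based tables, derived straight from the reads, are named, and an error is the SD of the 2 libraries. The 2 libraries held 31196858 and 32292150 expected counts. In this bulk tissue, fewer cells of a type and less RNA per cell cannot be told apart.

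Ndrg2 (ENSMUSG00000004558.15, chr14:51905271-51914158) was highest, with 352 TPM in replicate 1 and 339 TPM in replicate 2, a mean of 346 ± 8.95 (SD, n = 2). Its expected counts were 12836 and 13433. It ranked 112 among 22015 nuclear protein-coding genes. S100b (ENSMUSG00000033208.7, chr10:76253853-76261159) followed with 65.8 and 66.9 TPM, a mean of 66.3 ± 0.778, from 1861 and 2027 counts. Ndrg2 was thus 5.21 times as high as S100b in TPM, the widest step between neighbours in level.

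Slc4a4 (ENSMUSG00000060961.14, chr5:88886818-89239653) had 54.3 TPM in replicate 1 and 51.0 TPM in replicate 2, a mean of 52.6 ± 2.38. Aqp4 (ENSMUSG00000024411.10, chr18:15389496-15410982) had 33.6 and 34.5 TPM, a mean of 34.1 ± 0.580, from 2605 and 2741 counts. Aldh1l1 (ENSMUSG00000030088.15, chr6:90486427-90600203) had 29.2 and 28.2 TPM, a mean of 28.7 ± 0.658. These 5 genes each lay above at least 81.6% of nuclear protein-coding genes. Sox9 (ENSMUSG00000000567.5, chr11:112782224-112787760), the transcription factor, was lowest with 8.57 and 7.98 TPM, a mean of 8.28 ± 0.417, from 707 and 705 counts. It ranked 8974, above 59.2% of them.

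The order from Ndrg2 through S100b, Slc4a4, Aqp4 and Aldh1l1 to Sox9 was the same in both libraries, and for no 2 neighbours did the libraries' values overlap. It was also the same in the read-based tables. The step from Aqp4 to Aldh1l1 was the narrowest, 1.19 times in mean TPM. It is also the only step where the bounds that the authors deposited beside each TPM overlap, so these 2 genes were not separated beyond that error. S100b was 1.26 times as high as Slc4a4, Slc4a4 1.55 times as high as Aqp4, and Aldh1l1 3.47 times as high as Sox9.

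The absolute values depended on the table more than the order did. In the read-based tables Ndrg2 had 697 and 690 TPM, a mean of 693 ± 4.92. Nuclear protein-coding genes held 46.7% and 44.1% of all TPM in the alignment-based tables and 76.5% and 75.5% in the read-based ones, and every member's TPM was higher in the read-based tables. Recomputed over nuclear protein-coding genes alone, Ndrg2 was still higher in the read-based tables, at 912 against 762, while S100b was lower, at 124 against 146. S100b differed from the other 5 genes in its counts. Its read-based count was 0.900 of its alignment-based count, while the ratio ran from 1.06 for Aldh1l1 to 1.15 for Aqp4 in the others and had a median of 1.07 over all genes tested. The last 1731 bases of S100b are overlapped on the opposite strand by Dip2a, which had 28.2 and 26.3 TPM. Whether this overlap bears on the S100b count was not tested.

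**Figure D1:**
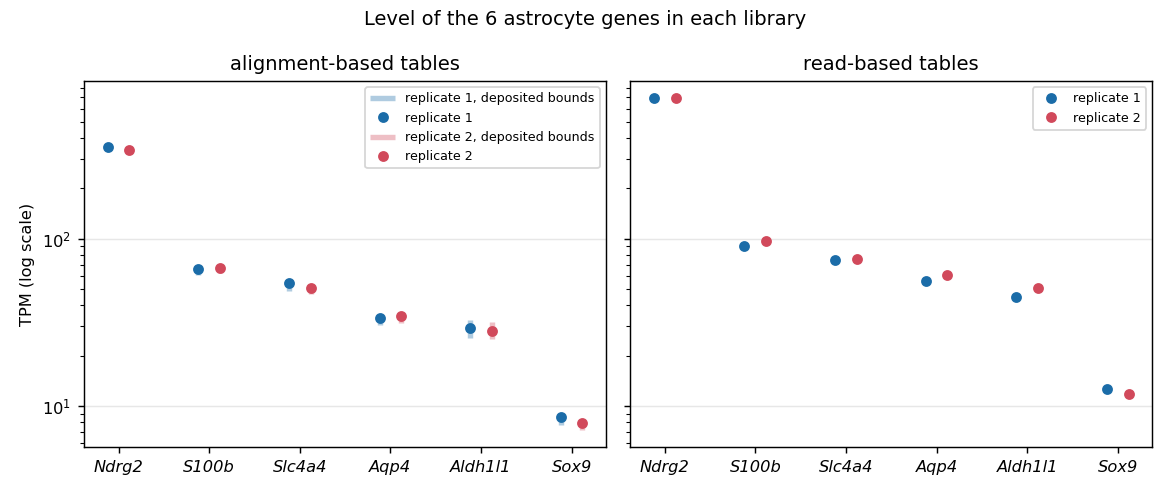
TPM of the 6 astrocyte genes (log axis) in replicate 1 (blue) and replicate 2 (red), from the alignment-based tables (left, shaded bars for the authors' deposited bounds) and the read-based tables (right). The order of the genes is the same in both panels, from Ndrg2 at a mean of 346 TPM on the left panel to Sox9 at 8.28 TPM.

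Each gene had a close neighbour in level among 40 other astrocyte genes. All 40 reached 1 TPM in both libraries, and with the 6 they gave 46 genes ranked by level. Ndrg2, at place 8, stood beside Aldoc, the brain aldolase of glycolysis, at 348 ± 6.08 TPM. S100b, at place 18, was nearest to the neurotensin receptor Ntsr2, with 58.6 TPM in replicate 1 and 66.2 TPM in replicate 2. Slc4a4, at place 21, was nearest to the sphingosine-1-phosphate receptor S1pr1, at 51.0 ± 0.530 TPM. Aqp4 was at place 29, next to the mitochondrial glutamate carrier Slc25a18 at 31.5 ± 1.17 TPM. Aldh1l1, at place 32, was nearest to Dio2, the deiodinase that activates thyroid hormone, at 31.3 ± 3.17 TPM. Sox9, at place 43, was nearest to angiotensinogen, Agt, at 7.24 ± 0.509 TPM. The top of the 46 was held by the apolipoprotein Apoe at 822 TPM, glutamine synthetase Glul at 813 TPM and the glutamate transporter Slc1a2 at 720 TPM.

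The 6 genes differed little between the libraries. The ratio of replicate 2 to replicate 1 was taken on expected counts scaled by edgeR's TMM factors, with an exact 95% interval that covers counting error alone. A gene was called different where that interval lay wholly beyond 2-fold and its 2 libraries averaged 10 counts or more. By that rule 57 of 18552 genes tested (0.307%) were called and 0 of the 6 astrocyte genes. With the limit at 1.5-fold, 0.48% of all genes were called and again 0 of the 6. At so low a share over all genes, 0 of 6 does not set these genes apart. The same holds for each list below in which 0 were called. Genes that averaged under 10 counts could not be called.

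The log2 ratio was 0.04 for Ndrg2 (interval 0.01 to 0.08), 0.07 for Slc4a4 (0.02 to 0.12) and 0.10 for S100b (0.01 to 0.19). For Aldh1l1 it was 0.11, for Aqp4 0.05 and for Sox9 -0.03, and these 3 intervals took in 0. The widest interval, that of Sox9, ran from -0.18 to 0.13, so counting error allows a change of that size in either direction. The 6 had a median log2 ratio of 0.06, against -0.001 over all genes tested. In the 8159 genes that averaged 500 counts or more, the middle 95% of log2 ratios ran from -0.17 to 0.17, and all 6 members lay inside.

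The other 40 astrocyte genes leaned the same way, by a similar small amount at the median. Of them 37 were higher in replicate 2 on TMM-scaled counts, with a median log2 ratio of 0.08, and 0 were called. The median over all genes tested was -0.001. Unlike the 6 members, some of the 40 lay above 0.17, the upper end of the range given above. Among these were Dio2 (0.28), the glycogen-targeting subunit Ppp1r3c (0.25) and Ntsr2 (0.21). Scaled by total annotated counts 31 of 40 were higher, and by spike-in counts 38 of 40. On the deposited TPM the direction turned: 18 of 40 and 2 of 6 were higher in replicate 2, where the median log2 ratio of all genes was itself -0.09. The median of the 40 genes on that scale was -0.01, which is above the median of all genes. No marker of oligodendrocytes, neurons or meningeal fibroblasts was called. The 9 oligodendrocyte markers had a median log2 ratio of 0.14, the 9 neuron markers -0.0004 and the 7 meningeal fibroblast markers -0.19. Their summed TPM in replicates 1 and 2 was 722 and 773 for oligodendrocytes, 3674 and 3562 for neurons, and 92.6 and 69.2 for meningeal fibroblasts, with no marker of the 3 lists at 0. Of the meningeal sums Igf2 alone held 47.5 and 28.8 TPM. Among the 7 meningeal markers 5 had a log2 ratio below 0, while Dcn was higher in replicate 2 (0.34) and Col1a1 was near level (0.003). The part of these 3 cell types in the shift of the astrocyte genes was not tested.

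**Figure D2:**
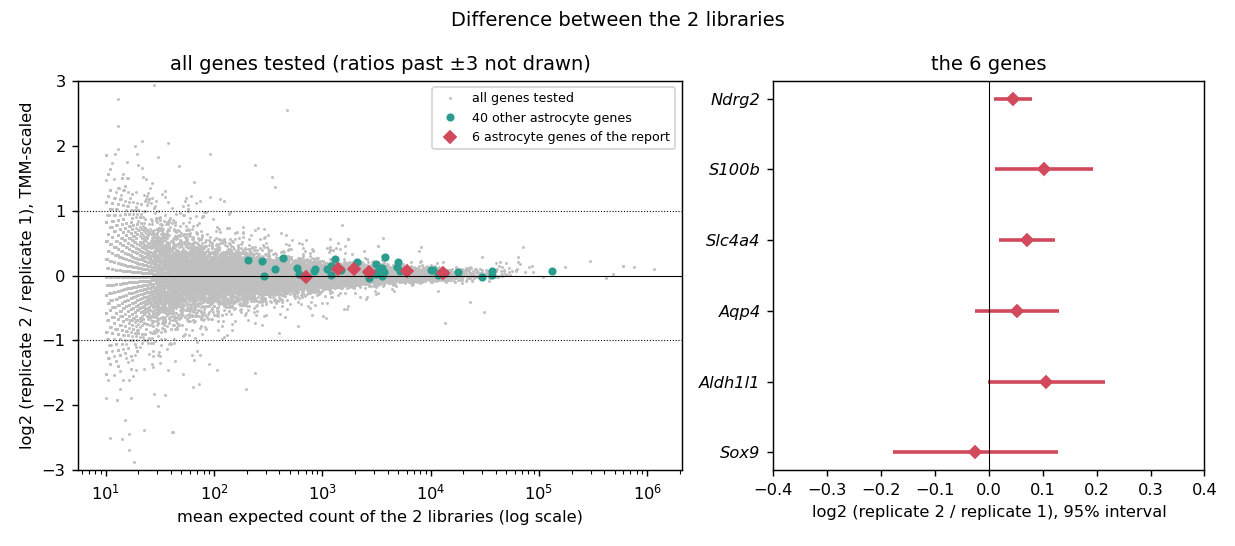
Left, log2 ratio of replicate 2 to replicate 1 on TMM-scaled expected counts against the mean count (log axis) for the 18552 genes tested (grey), the 40 other astrocyte genes (green) and the 6 genes described (red), with dotted lines at 2-fold. Right, the same ratio for the 6 genes with its exact 95% counting interval. The 6 lie between -0.03 and 0.11.

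Aqp4 was read mainly as 1 long message. The water channel exists as M1 and as the shorter M23, which starts at a methionine further in. M23 builds square arrays in the end-foot membrane, and M1 limits their size. Of 11 annotated transcripts, Aqp4-201 encodes the 323 codons of M1, and 7 others encode the 301 codons of M23. Aqp4-201 held 69.9% of the gene's TPM in replicate 1 and 66.2% in replicate 2, a mean of 68.0% ± 2.66. In the read-based tables it held 63.0% and 58.9%. It led in both libraries and both quantifications.

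The M23-coding transcripts together held 29.3% and 33.2% in the alignment-based tables and 36.0% and 39.7% in the read-based ones. The quantifications placed this share on different transcripts. Aqp4-205 had 16.8% and 24.6% in the alignment-based tables and 0 in both read-based ones. Aqp4-202, with another start and the same coding sequence, had 0.921% and 0 in the alignment-based tables but 25.8% and 26.7% in the read-based ones. Aqp4-210 was close in both, with 10.1% ± 2.08 against 10.4% ± 0.930. Neither Aqp4-205 nor Aqp4-202 has a base of its own, while Aqp4-210 has 341 bases found in no other transcript of the gene. The count of Aqp4-205 in replicate 1 was 116, while the posterior mean that the authors deposited for it was 62.5 with an SD of 31.1, and its TPM bounds ran from 0.230 to 5.76.

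The M1 share also rests on the annotated ends. Aqp4-201 is the only transcript with the long 3′ end, where 3894 of its 5054 bases lie in no other transcript. By counts, which are not corrected for length, M1 held 91.0% ± 0.894 of the M1 and M23 sum, against 68.5% ± 2.77 by TPM. A message that starts like M23 and ends with the long 3′ exon is not annotated, and its reads would be shared out by that model. The shares are of RNA and not of protein, since M23 can also be translated from an M1 message. An antisense gene, AC133525.2, overlaps Aqp4 over 7896 bases and had 0.170 and 0.210 TPM.

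Aqp4 was the highest aquaporin of the cortex. Of 12 aquaporin genes, 3 reached 1 TPM in both libraries: Aqp4, Aqp11 at 10.8 ± 0.933 TPM and the glycerol channel Aqp9 at 1.35 ± 0.0566 TPM. Aqp12, Mip and Aqp8 had 0 counts in both. The 12 genes for the complex that anchors Aqp4 at the end-foot and for its membrane partners were all above 1 TPM. Agrn, the heparan sulfate proteoglycan agrin, was highest at 64.8 ± 2.55 TPM, followed by the dystrobrevins Dtna at 52.9 ± 1.07 and Dtnb at 51.8 ± 3.78 TPM. Of the 4 aquaporins with enough counts to be tested and the 12 anchoring genes, 0 were called different between the libraries.

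Slc4a4 was read mostly from its upstream start. NBCe1-B held 55.9% of the gene's TPM in replicate 1 and 59.6% in replicate 2, with 57.2% and 59.6% in the read-based tables. NBCe1-C held 22.9% and 24.0%, and 26.0% and 26.2% in the read-based tables. Here the 2 quantifications and the 2 libraries differed by only a few percentage points. Of the sum of the forms B and C, C made up 28.9% ± 0.228 by TPM in the alignment-based tables and 30.9% ± 0.476 in the read-based ones. By counts C made up 15.0% ± 0.141, since its annotated message of 3494 bases is shorter than the 7931 bases of NBCe1-B. Slc4a4-207 has 3859 bases of its last exon in no other transcript, while Slc4a4-208 is annotated with 288 bases of that exon. Reads of an NBCe1-C message with the long 3′ end could be placed on NBCe1-B in both quantifications. Their closeness therefore does not settle the split.

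The transcript annotated with the complete kidney form was close to the detection limit. NBCe1-A (Slc4a4-203) held 0.166% and 0.157% of the gene's TPM, from 5.65 and 5.47 expected counts. The read-based tables gave it 0 counts in replicate 1 and 30.2 in replicate 2. The 4 transcripts that begin within 500 bases of the upstream start held 79.7% and 85.0% of the gene's TPM. The 3 within 500 bases of the internal start held 5.89% and 6.59%. In the read-based tables the upstream start held 84.2% and 87.3% and the internal start 15.8% and 12.7%. The internal shares rest on few counts: 68.6 of 5839 in replicate 1 and 71.8 of 6222 in replicate 2. In the read-based tables they rest on 113 of 6343 and 120 of 6789 counts. Most of the internal share was Slc4a4-204, an annotated fragment of 780 bases with an incomplete coding sequence. It held 4.71% and 5.53%, and 14.4% and 10.7% in the read-based tables. Slc4a4-204 shares the coding start of NBCe1-A and has no base of its own, so reads of an NBCe1-A message may be placed on it. Another fragment of 371 bases, Slc4a4-206, begins between the 2 starts. It took 14.4% of TPM in replicate 1 and 8.38% in replicate 2 from 43.5 and 25.4 counts, and 0 in the read-based tables.

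The direction between the libraries differed between counts and TPM for the whole gene. Slc4a4 had more counts in replicate 2 (6222) than in replicate 1 (5839), but a lower TPM, 51.0 against 54.3. Ndrg2 and Aldh1l1 likewise had more counts and a lower TPM in replicate 2. The median log2 ratio of all genes on the deposited TPM was -0.09, as given above. The mean length deposited for Slc4a4 was 5677 bases in replicate 2 and 5359 in replicate 1. For NBCe1-B alone the TPM was 30.4 in each library, with an SD of 0.00707. NBCe1-C had 12.44 TPM in replicate 1 and 12.25 TPM in replicate 2, and the fragment Slc4a4-206 had 7.82 and 4.27 TPM.

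Among the SLC4 bicarbonate transporters Slc4a4 was the third by level. Slc4a10, a sodium-driven transporter of neurons, had 94.5 ± 12.1 TPM, and the anion exchanger Slc4a3 had 82.5 ± 4.45 TPM. Of the 10 genes of the family, 6 reached 1 TPM in both libraries, and 0 of the 8 tested were called. Slc4a5, known from the choroid plexus, had 4 counts in replicate 1 and 16 in replicate 2. Of 13 carbonic anhydrases and other pH genes, 12 reached 1 TPM in both. Car11, a carbonic anhydrase-related protein that lacks the enzyme activity, led at 109 ± 5.95 TPM, followed by the related Car10 at 63.9 ± 3.10 TPM. Car2, the cytosolic enzyme of glia, had 46.3 ± 1.32 TPM, somewhat below Slc4a4. Of the 13 genes 12 were tested, and again 0 were called.

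**Figure D3:**
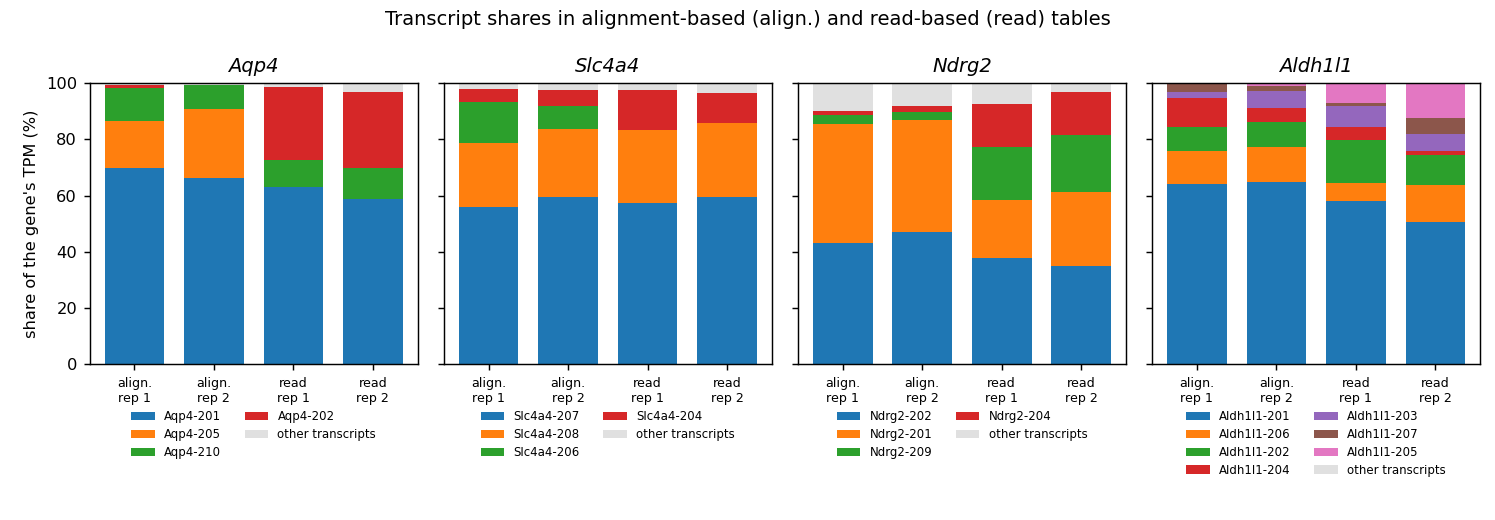
Share of each gene's TPM (percent) held by its named transcripts in the alignment-based (align.) and read-based (read) tables of replicate 1 and replicate 2, with all other transcripts in grey. For Slc4a4 the blue and orange parts, NBCe1-B and NBCe1-C, are alike in all 4 bars, while for Aqp4 and Ndrg2 the parts above the blue one change with the quantification.

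Ndrg2 was read both with and without the 14-codon exon, almost evenly in the alignment-based tables. Ndrg2-202, which encodes 357 codons, held 43.2% of the gene's TPM in replicate 1 and 46.9% in replicate 2. Ndrg2-201, which encodes 371 codons, held 42.5% and 39.9%. In the read-based tables Ndrg2-202 held 37.9% and 34.8% and Ndrg2-201 held 20.6% and 26.6%, so the shorter coding form led more widely there. Over all transcripts that span the site, those with the exon made up 45.9% and 44.1%, a mean of 45.0% ± 1.26. In the read-based tables they made up 38.3% and 42.7%, a mean of 40.5% ± 3.15. The alignment-based libraries both lay above the read-based ones, though 44.1% and 42.7% were near each other. By counts, which are not corrected for length, the quantifications were further apart. Transcripts with the exon then made up 46.9% ± 2.30 in the alignment-based tables and 36.7% ± 4.75 in the read-based ones.

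The 2 quantifications also differed on shorter Ndrg2 transcripts. Ndrg2-209, which starts furthest upstream and has an incomplete coding sequence, held 2.88% and 2.93% in the alignment-based tables and 19.5% ± 0.785 in the read-based ones. Ndrg2-204, a 5-exon fragment, held 1.74% and 1.95% against 15.1% and 15.4%. Both differences are many times the spread between libraries within a quantification, and the order of the pair was the same in all 4 tables. Ndrg2-201 has 12 bases of its own and Ndrg2-202 has 45. The posterior SD that the authors deposited for the count of Ndrg2-201 was 291 and 335, on counts of 6112 and 5928.

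Ndrg2 was second in its own family. Ndrg4, a member found mainly in neurons, had 801 ± 35.7 TPM, Ndrg3 had 205 ± 13.2 TPM, and Ndrg1, strong in oligodendrocytes, had 27.2 ± 1.27 TPM. All 4 reached 1 TPM and 0 were called. The log2 ratio was 0.04 for Ndrg2 and 0.07 for Ndrg1, but -0.03 for Ndrg4 and -0.09 for Ndrg3. Scaling by total annotated counts lowers each of these by 0.03, which changes neither their order nor their signs.

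**Figure D4:**
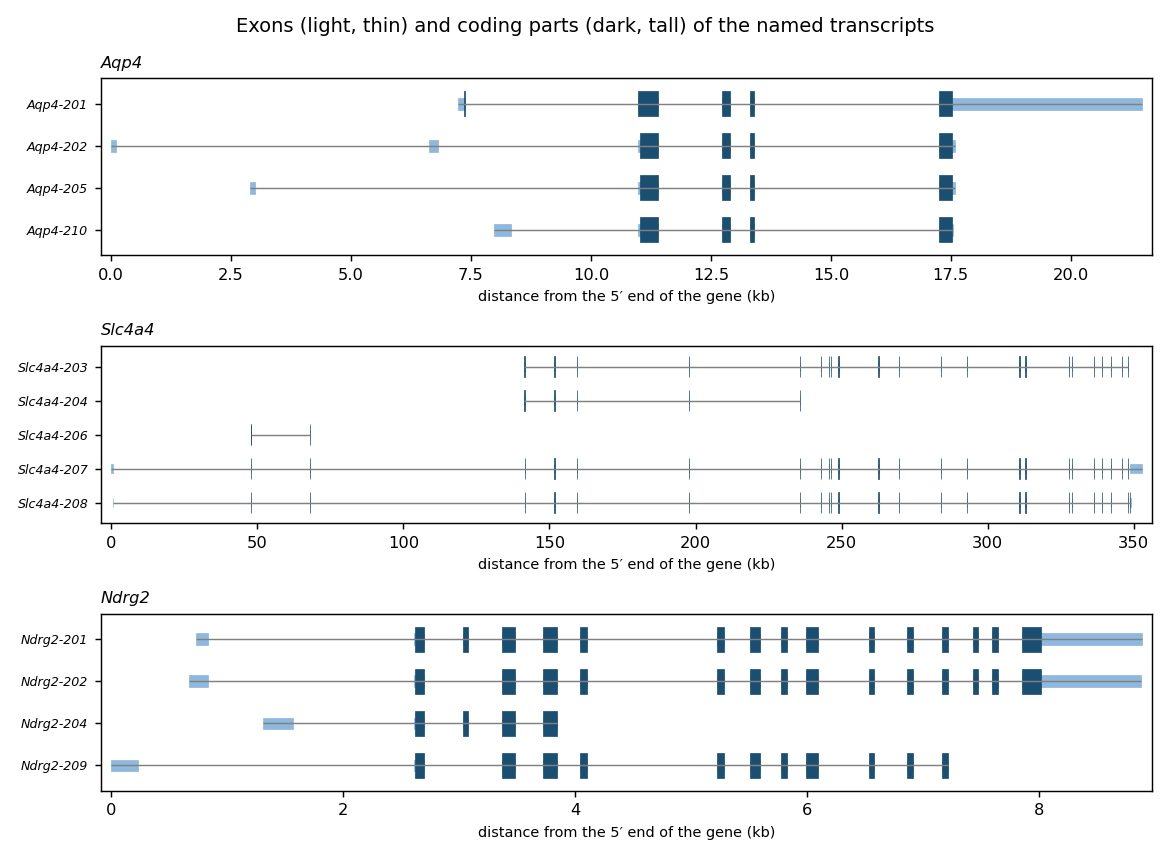
Exons (light) and coding parts (dark) of the named transcripts of Aqp4, Slc4a4 and Ndrg2, by distance in kb from the 5′ end of each gene. Aqp4-201 alone carries the long last exon, Slc4a4-203 and Slc4a4-204 begin at the internal start, and Ndrg2-204 and Ndrg2-209 stop before the last exons.

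Aldh1l1 had its complete coding sequence in 2 transcripts of the same 902 codons. Aldh1l1-201 held 64.1% and 64.8% of the gene's TPM, and 57.9% and 50.7% in the read-based tables. Aldh1l1-203, with a 3′ end that reaches 1034 bases further, held 2.30% and 6.16%, and 7.26% and 6.06% in the read-based tables. The 4 transcripts annotated without a coding product or for decay held 21.7% and 16.6%, and 28.3% and 30.2% in the read-based tables. Those shares rest on few counts: 103 of 1319 in replicate 1 and 68 of 1441 in replicate 2. In the read-based tables they rest on 52.6 of 1395 and 156 of 1527 counts. Such transcripts held a median of 14.2% (alignment-based) and 17.2% (read-based) in all protein-coding genes with more than 1 transcript and enough counts. Among them were the processed transcript Aldh1l1-202, with 8.47% and 8.99%, and the retained-intron transcript Aldh1l1-204, with 10.2% and 4.78%. The incomplete coding transcript Aldh1l1-206 held 11.9% and 12.5% from 32.4 and 35.2 counts. The remaining named transcripts passed 5% in the read-based tables alone: Aldh1l1-205, with 7.06% and 12.4%, and Aldh1l1-207, with 5.66% in replicate 2.

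Aldh1l1 was the highest of 24 folate and one-carbon genes, of which 19 reached 1 TPM in both libraries. Gart, a purine synthesis enzyme that uses the formyl-folate on which Aldh1l1 acts, had 20.6 ± 0.0849 TPM. Mthfd1, which interconverts the folate forms, had 17.3 ± 0.212 TPM. Ftcd had 0 counts in both libraries, and 0 of the 22 genes tested were called.

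S100b and Sox9 are each annotated with 1 transcript, of 92 and 507 codons. S100b led 18 genes of the S100 proteins with their receptor and a binding partner, of which 9 reached 1 TPM in both libraries. S100a1 was close behind at 53.6 ± 1.11 TPM, and S100a16 had 31.9 ± 2.70 TPM. The libraries of S100b, with 65.8 as the lower, and of S100a1, with 54.4 as the higher, did not overlap. S100a5, S100z and S100g had 0 counts in both.

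Sox9 stood in the middle of its family. Of 19 SOX genes 14 reached 1 TPM in both libraries, and Sox8, of the same SoxE subgroup, was highest at 29.5 ± 1.20 TPM. Sox5 had 26.0 ± 1.56 TPM and Sox2, shared by astrocytes and progenitors, had 16.3 ± 0.0424 TPM. Sox10, the oligodendrocyte factor, had 7.86 ± 0.177 TPM, near Sox9 at 8.28 ± 0.417 TPM. The pair was not separated by its libraries, since 7.98 TPM was the lower value of Sox9 and the higher of Sox10. Sox14 had 0 counts in both. Among 16 transcription factors of astrocytes the nuclear factor I gene Nfix was highest at 147 ± 3.92 TPM. The ETS factor Etv5 had 43.3 ± 2.23 TPM and the LIM homeobox factor Lhx2 had 38.2 ± 0.679 TPM. All 16 reached 1 TPM, and 0 of the 16 SOX genes tested or of the 16 factors were called.

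**Figure D5:**
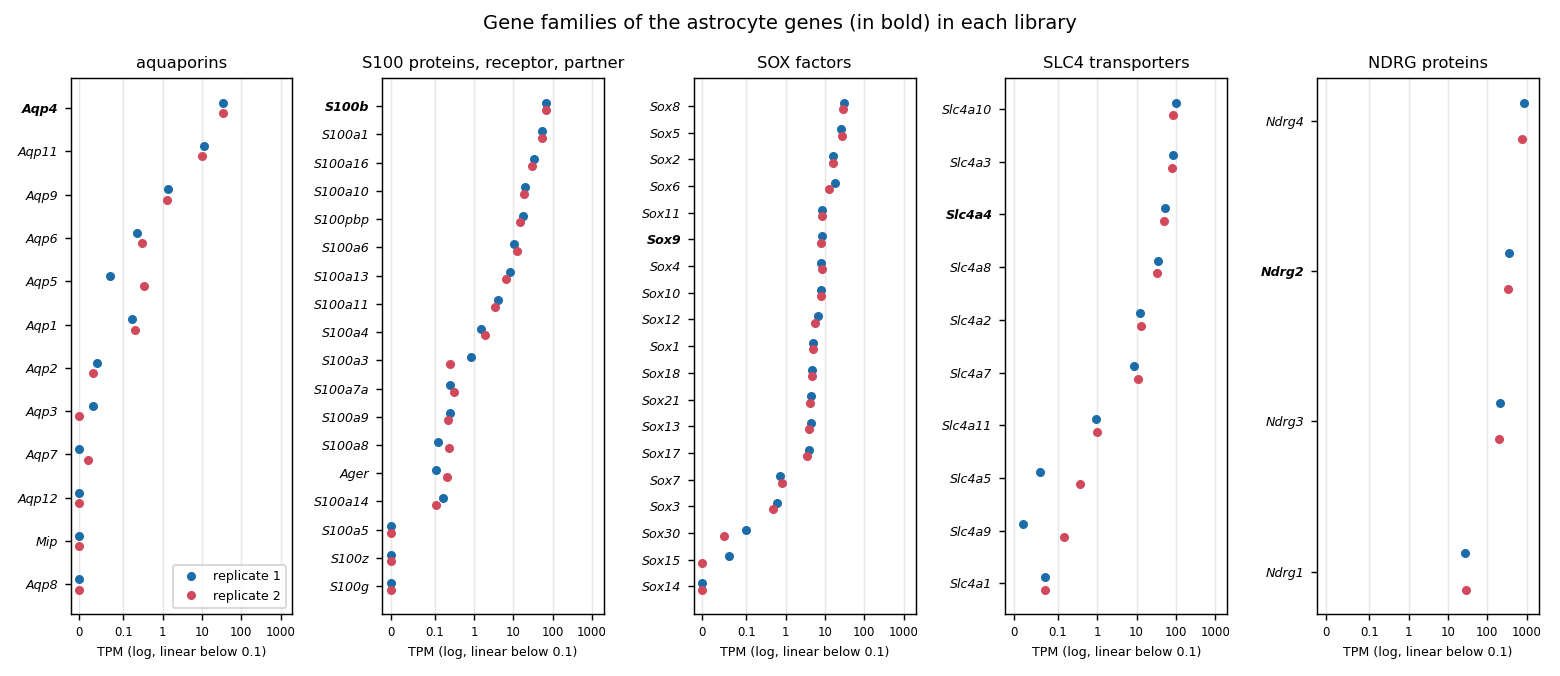
TPM of every listed gene of 5 families in replicate 1 (blue) and replicate 2 (red), on an axis that is logarithmic above 0.1 and linear below it, with the astrocyte genes Aqp4, S100b, Sox9, Slc4a4 and Ndrg2 in bold. Of these 5 only Aqp4 and S100b top their family, and Sox9 lies in a cluster of SOX genes near 8 TPM.

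Across all 6 genes the leading transcript was the same in both quantifications, trivially so for S100b and Sox9. Over all protein-coding genes with more than 1 transcript and enough counts, 9677 of 13036 (74.2%) kept the same leading transcript. The 4 members with a choice are too few to set apart from that share.

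The tissue label was checked against the markers of the cells it should hold. The neuron genes Snap25 at 1327 ± 30.3 TPM, Slc17a7 at 550 ± 18.0 TPM and Syt1 at 515 ± 15.1 TPM were high. The oligodendrocyte genes Mbp and Mobp had 319 and 88.7 TPM, and the precursor genes Olig1, Pdgfra and Gpr17 had 35.9, 17.4 and 12.3 TPM. Microglia were seen through Csf1r and C1qb at 30.7 and 25.4 TPM, and endothelium through Ly6c1, Itm2a and Flt1 at 31.9, 18.4 and 16.2 TPM. The meningeal genes Igf2, Dcn and Slc6a13 had 38.2, 9.87 and 9.73 TPM. Ependymal cells, which also make Aqp4 and S100b, were low: 2 of their 6 markers reached 1 TPM in both, the 6 summed to 9.23 and 9.88 TPM, and Rarres2, Foxj1 and Dynlrb2 had 5.88, 1.78 and 0.995 TPM.

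Of all the marker lists, 1 gene was called. Ttr, the thyroxine carrier of the choroid plexus, had 136 counts in replicate 1 and 816 in replicate 2, a log2 ratio of 2.56. Of the 8 choroid plexus genes 6 were tested, and Ttr alone was called. Enpp2, also an oligodendrocyte gene, had 88.3 and Kl 1.70 TPM, and the 8 summed to 101 and 127 TPM. The second sum was higher because of Ttr, which had 6.12 and 34.3 TPM, while Enpp2 had 89.6 and 87.0 TPM. Aqp4, S100b, Slc4a4 and the other 3 genes differed between the libraries by no more than 0.11 on the log2 scale, as given above. The part of choroid plexus RNA in their levels was not tested.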

How the data were processed

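Total RNA-seq of 2 libraries of 1 group was used, with 3 tables each. Per the file headers, the alignment-based gene and transcript tables hold expected counts and TPM, transcript shares as percent, and posterior mean counts, as the authors deposited them. The posterior SD of a count is a deposited score of its uncertainty, and the TPM bounds, whose level is not stated, are a deposited signal-like value. The read-based transcript tables hold the authors' estimated counts and TPM. The build is mm10 and the annotation GENCODE M21, per the lists of files deposited with each library. The aligner and the quantifier are not given in the sources used. Reads of CAST/EiJ alleles were quantified against a C57BL/6J reference, which was not corrected.

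Read-based transcripts were summed per gene. Expected counts were rounded and scaled by TMM (edgeR 4.0.16). The ratio of replicate 2 to replicate 1 has a prior count of 0.5 and a Clopper-Pearson 95% interval (scipy 1.17.1). The rule for calling genes was tried on simulated counts with known changes, at a spread not taken from these libraries. The coverage of the interval was not checked. The interval is computed from the 2 counts alone, so it covers counting error only. Fragments were not counted by molecular identifier. No quasi-likelihood test was run, since 1 group has no comparison. Genes with a mean count under 10 were not tested, and spike-ins stayed out of scaling except as an alternative. DESeq2 1.42.0 gave another scaling. A transcript was named at 5% of its gene's TPM in any table, with Slc4a4-203 outside that rule. Of each list the 3 genes highest in TPM, called genes and genes at 0 were named, and for each member the astrocyte gene nearest in level. A few genes that this rule would name are not reported here. Genes named beyond these (Ppp1r3c, Sox10, Slc4a5, Ndrg1, Col1a1) were chosen after their values were seen. The members and all 20 lists were chosen with earlier results of these data known. Promoter windows are from RefSeq.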

Additional observations from a re-analysis of the deposited data

How the results depend on the processing

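The count of genes called different between the libraries was 57, and became 86 with no minimum mean count and 89 with a 1.5-fold limit; under the other 4 settings (DESeq2 size factors, total counts, spike-in sums, read-based tables) it was between 42 and 57. For the 6 members the count was 0 under all 6 settings, and the sign of each of the 6 log2 ratios was kept under the 4 scaling and table settings. Mean TPM in the read-based tables was 693 for Ndrg2, 94.2 for S100b, 75.4 for Slc4a4, 58.5 for Aqp4, 47.9 for Aldh1l1 and 12.3 for Sox9. In the alignment-based tables, mean TPM over nuclear protein-coding genes alone was 762, 146, 116, 75.1, 63.2 and 18.2 in the same order of genes. With 1 library left out, mean TPM is that of the other library, and 6 of 6 members kept the same leading transcript in both quantifications, also by counts and among protein-coding transcripts alone. The share of the leading transcript moved by more than 1 SD in the read-based tables for Aqp4, Aldh1l1 and Ndrg2. The cause was not tested. The ratio between libraries cannot be computed with a library left out. No paired analysis was possible because there is 1 group. The number of astrocyte genes higher in replicate 2 was followed through other scalings after seeing the data. With 2 libraries, depth limits Sox9 and minor transcripts such as Slc4a4-203 most.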

Other observations

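Genes linked to reactive astrocytes spanned levels from just below that of Slc4a4 to near 0. Of 18 such genes 11 reached 1 TPM in both libraries. Gfap, the intermediate filament that rises in reactive astrocytes, had 49.7 ± 2.89 TPM, between S100b and Aqp4, and its partner Vim had 23.5 ± 0.389 TPM. The class I gene H2-D1, which other cells also express, had 10.3 ± 2.21 TPM. The remaining genes lay at or below the level of Serpina3n, the acute-phase protease inhibitor, at 5.31 ± 0.707 TPM, which is under that of Sox9. Lcn2, a secreted lipocalin, had 7 and 3 counts, the complement gene C3 had 9 and 20 counts, and the chemokine Cxcl10 had 1 and 0 counts. Of the 18 genes 13 had enough counts to be tested, and none was called different between the libraries. The strongest shift among those above 1 TPM was in Serping1, with 133 counts in replicate 1 and 83 in replicate 2, a log2 ratio of -0.70 (interval -1.11 to -0.30). These genes, Serping1 and those below 1 TPM, were singled out after their values were seen.

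The annotation gave Aqp4 an antisense partner whose count differed between the quantifications. AC133525.2 had 9 and 12 expected counts in the alignment-based tables and 64.3 and 71.0 in the read-based ones.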
